A study of Homo sapiens with 8 samples.

Results

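SMAD3 ChIP-on-chip in A549 cells gave 1403 probes whose ratio of SMAD3 signal to mock signal was high only after TGFβ1 stimulation. These probes were selected on their measured values among 161376 probes tested, which were those well above background in both channels on all 4 arrays of their slide, of 474411 probes in all. The value of a probe was the log2 SMAD3 IP signal over the mock IP signal minus the median of the array, so that 0 is the typical probe and 1 unit is a doubling of the ratio. A member had a value above 2 in both stimulated replicates and below -1 in both unstimulated replicates. The same thresholds turned around, above 2 at the basal level and below -1 after stimulation, gave 1919 probes, and 5113 probes were above 2 in all 4 replicates.

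A549 is an established line derived from a human lung adenocarcinoma, with features of alveolar epithelium. The cells were serum-starved and then left untreated (basal level) or given 2 ng/ml of TGFβ1. The sample labels allow a time of at most 2 h, while the results of the study give a shorter time. On every array, DNA precipitated with an antibody against SMAD3 carried Cy5 and DNA of an anti-FLAG mock IP of the same condition carried Cy3. There were 2 replicates per condition, each on 2 slides with different probes, which makes 8 arrays. Every value below thus rests on 2 measurements per condition. The sample titles call them only replicates and do not say whether cultures, precipitations or hybridisations were repeated.

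TGFβ1 binds a pair of receptor kinases at the cell surface, which phosphorylate SMAD2 and SMAD3. The phosphorylated SMADs join SMAD4, enter the nucleus and bind DNA together with partner factors such as AP-1. SMAD3 itself contacts a short element with the letters GTCT, or AGAC on the other strand, and in epithelial cells the pathway is known for turning on genes of the extracellular matrix and for slowing the cell cycle.

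Promoters in which a member lay show what such a region looks like. CDK6 (cyclin-dependent kinase of G1) and CLDN3 (a tight junction protein) are shown because they were the genes of the pathway lists with a member from 250 bp before to 50 bp after the annotated start and a RefSeq promoter. ANPEP (an aminopeptidase of the cell surface), HAUS5 (a subunit of the augmin complex of the spindle, KIAA0841 on the array) and ADM (the vasodilator peptide adrenomedullin) were chosen after their values were seen, for a member in this window beside another probe that rose. The sequences are those of RefSeq for GRCh38.p14, 5′ to 3′ on the strand of the gene, from 250 bases before to 50 after its start, with GTCT or AGAC in capitals. The start on the array is that of an older annotation, so the place of a probe within the printed window is approximate.
CDK6: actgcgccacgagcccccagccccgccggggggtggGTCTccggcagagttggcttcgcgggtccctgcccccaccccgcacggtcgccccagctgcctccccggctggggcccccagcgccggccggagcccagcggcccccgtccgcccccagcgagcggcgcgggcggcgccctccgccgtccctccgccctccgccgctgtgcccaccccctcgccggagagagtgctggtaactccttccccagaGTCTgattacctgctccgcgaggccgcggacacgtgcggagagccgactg
CLDN3: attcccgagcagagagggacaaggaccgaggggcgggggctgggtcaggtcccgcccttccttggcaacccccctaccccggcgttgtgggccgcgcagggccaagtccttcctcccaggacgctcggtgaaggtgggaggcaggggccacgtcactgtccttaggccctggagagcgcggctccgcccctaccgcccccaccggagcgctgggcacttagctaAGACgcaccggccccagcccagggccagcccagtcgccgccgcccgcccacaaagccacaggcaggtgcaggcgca
ANPEP: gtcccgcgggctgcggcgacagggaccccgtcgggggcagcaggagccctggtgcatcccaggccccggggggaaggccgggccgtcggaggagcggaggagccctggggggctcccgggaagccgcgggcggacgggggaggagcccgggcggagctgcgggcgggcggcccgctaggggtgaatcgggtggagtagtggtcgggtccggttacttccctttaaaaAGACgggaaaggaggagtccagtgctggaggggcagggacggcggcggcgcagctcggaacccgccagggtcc
HAUS5: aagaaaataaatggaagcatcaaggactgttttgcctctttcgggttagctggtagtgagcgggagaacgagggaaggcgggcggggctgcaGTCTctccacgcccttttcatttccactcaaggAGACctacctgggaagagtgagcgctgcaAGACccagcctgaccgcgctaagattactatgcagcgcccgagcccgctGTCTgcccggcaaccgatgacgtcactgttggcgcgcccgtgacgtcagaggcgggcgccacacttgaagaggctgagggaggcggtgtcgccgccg
ADM: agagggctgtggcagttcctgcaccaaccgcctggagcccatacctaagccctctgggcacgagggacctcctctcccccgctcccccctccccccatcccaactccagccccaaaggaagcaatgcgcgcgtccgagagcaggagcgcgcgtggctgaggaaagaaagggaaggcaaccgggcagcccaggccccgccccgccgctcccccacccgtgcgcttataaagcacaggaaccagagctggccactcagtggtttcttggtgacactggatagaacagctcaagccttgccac
These windows lie at chr7:92836524-92836823 (minus strand) for CDK6, chr7:73770221-73770520 (minus strand) for CLDN3, chr15:89814803-89815102 (minus strand) for ANPEP, chr19:35612485-35612784 (plus strand) for HAUS5 and chr11:10304823-10305122 (plus strand) for ADM.

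The element occurred 4 times in the HAUS5 window, 2 times in that of CDK6, 1 time each in those of CLDN3 and ANPEP, and not at all in that of ADM. The HAUS5 member, 131 bp before the annotated start, read -2.35 and -2.28 at the basal level and 8.68 and 8.56 after stimulation. The ADM member, at the annotated start, read -5.88 and -4.75 and then 2.45 and 2.89. A window without the element thus also held a member. Of the 127 members from 250 bp before to 50 bp after an annotated start, 80 promoters could be matched to RefSeq by gene symbol. GTCT or AGAC was found in 66 of the 80, or 82.5%, against 84.1% of all 27305 RefSeq promoters and 81.8% of the 7701 with a tested probe in the window. The longer palindrome GTCTAGAC, which holds the short element on both strands, was in 0 of the 80 promoters and in 0.201% of all. CAGACA, which contains AGAC, was in 11 of the 80 (13.8%), against 16.8% of all and 12.8% of those tested. The AP-1 motif TGANTCA was in 3 (3.75%), against 7.76% of all and 4.62% of those tested. GGCGC was in 58 (72.5%), against 48.3% of all but 73.7% of the tested promoters, and the tested promoters and those with members had the same median GC content of 66%, while all promoters had 58.3%. All motifs were searched on both strands. For these letters the promoters with members were thus close to the promoters that could be tested.

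The members had, by their selection, separate values in the 2 conditions. Their median log2 ratio was -2.20 and -2.26 in the unstimulated replicates and 3.22 and 3.13 in the stimulated ones, while the median of all tested probes was between -0.54 and -0.30 in each replicate. The difference between the condition means ranged from 3.17 to 17.58, with a median of 5.82, and exceeded 10 in 124 members. The gap between replicates was small beside these differences, with a median of 0.29 after stimulation and 0.30 at the basal level, but it reached 5.69 and 3.29 in single members. Near the upper threshold, an EDN3 probe was included with 2.00072 in its lower stimulated replicate, and a GTF2F1 probe was left out with 1.99975. At the lower threshold, a C1orf174 probe was included at -1.00069 and a PRRC1 probe left out at -0.997853. A further 720 probes failed by less than 0.5 at the upper threshold alone and 476 at the lower alone. Another 426 probes met all thresholds but were not well above background on every array.

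**Figure D1:**
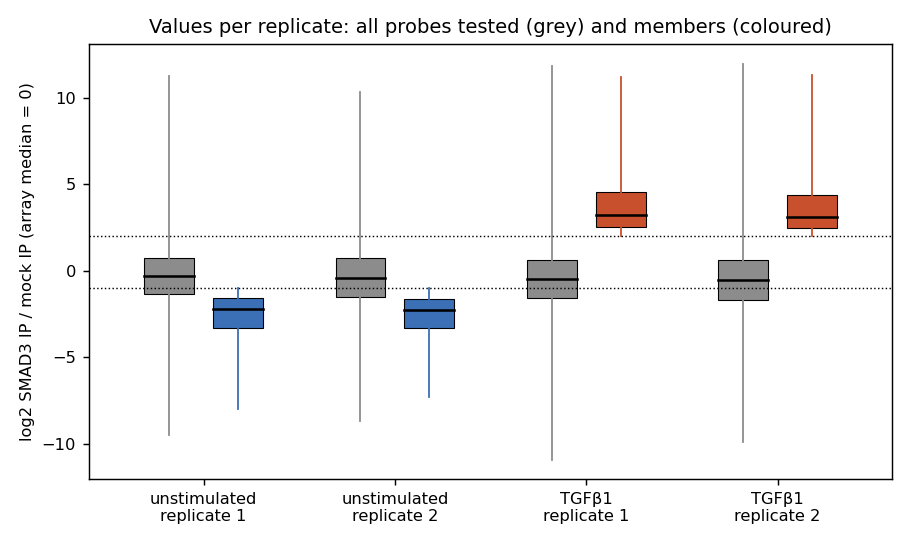
Log2 SMAD3 IP/mock IP ratio, with the array median at 0, in each replicate (n = 1403 members in colour, 161376 probes tested in grey). Boxes are quartiles, the black bar is the median and lines reach the lowest and highest probe; dotted lines are the thresholds of 2 and -1, which separate the members by construction.

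Both channels moved at the members, and the enrichment named here is one of the ratio, not of the SMAD3 signal alone. For the channels, log2 signals were centred on the median of each array. The median SMAD3 IP signal of the members was 3.42 and 4.24 at the basal level and 7.04 and 7.52 after stimulation. The median mock IP signal was 5.55 and 6.30 at the basal level and 2.97 and 3.39 after stimulation. At the basal level the mock signal of the members thus stood above that of all tested probes, whose medians were 3.28 and 4.19, and after stimulation it stood below it, with 3.68 and 4.05. The change between conditions had a median of 3.58 in the SMAD3 IP channel and -2.25 in the mock IP channel. In 1086 members (77.4%) the SMAD3 IP signal went up and the mock IP signal went down. In 184 members (13.1%) both signals went up, and in 133 members (9.48%) both went down, so that in these the SMAD3 IP signal itself was lower after stimulation. The size of the mock change was larger than that of the SMAD3 change in 551 members (39.3%). These values belong to the contrast that chose the members and are given as a description.

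**Figure D2:**
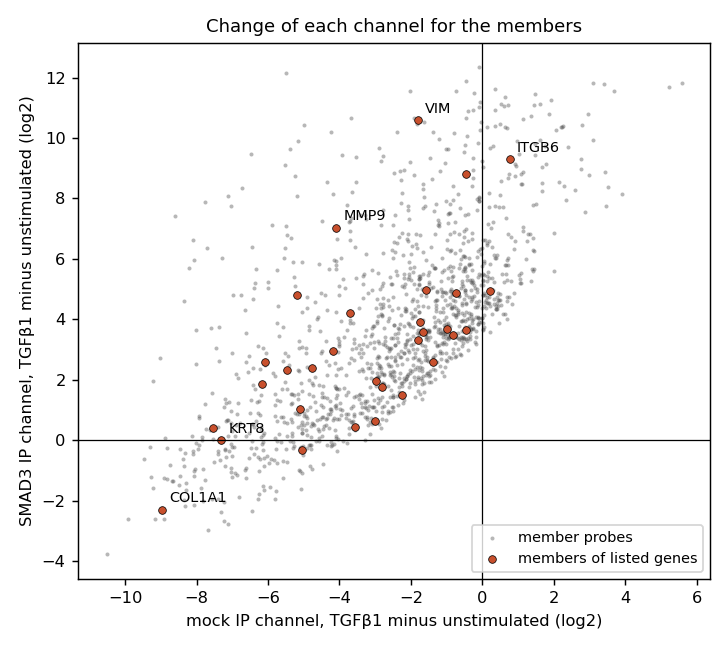
Change of the SMAD3 IP channel (vertical) against change of the mock IP channel (horizontal), stimulated minus unstimulated, in log2 units, 1 point per member (n = 1403). Points at the upper left (1086 members) have a rise in SMAD3 IP with a fall in mock IP, and the 133 points below the horizontal line have a lower SMAD3 IP signal after stimulation; orange points are members at genes of the pathway lists.

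The largest differences were at genes of diverse function. The CRTC3 probe, 586 bp before the start of this coactivator of CREB on chromosome 15, read -7.49 and -7.27 at the basal level and 10.97 and 9.42 after stimulation. The TMEFF2 probe, 1272 bp into this gene of a transmembrane protein with follistatin domains on chromosome 2, read -5.77 and -5.66, then 10.12 and 10.55. ALLC, the gene of allantoicase, read -5.19 and -4.25, then 11.08 and 10.97, at 1448 bp from its start. In these members the gap between replicates was far below the gap between conditions, which their choice for the largest differences nearly fixes. TRPV2, a cation channel, held a pair of members around its start. The first, 165 bp upstream, read -5.86 and -6.50 and then 9.52 and 8.82, and the second, 4 bp downstream, read -5.57 and -6.46 and then 7.14 and 9.40. Other tested probes of TRPV2 moved in either direction (limma). The change was 6.30 at 103 bp, -4.61 at 363 bp and -2.90 at 500 bp. ANGPTL2, a secreted angiopoietin-like protein, held members at 366 and 582 bp, with differences of 11.69 and 15.16. SLC47A2, a transporter of organic cations, held members at 1604 and 1843 bp with differences of 15.15 and 8.06, and in the second the stimulated replicates were far apart, at 7.38 and 3.66. Tested probes of SLC47A2 at 1225 and 2383 bp changed by 2.16 and -5.49 (limma).

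Some members lay in runs of neighbouring probes with the same pattern. Of the 1403 members, 133 (9.48%) had another member within 250 bp, in 58 runs of which 44 had 2 members, 11 had 3 and 3 had 4, and the longest run spanned 572 bp. Of the tested probes that were no members, 0.884% had a member within 250 bp. The share with a neighbour of their own kind was 8.70% among probes positive only at the basal level and 13.7% among those positive in both conditions. DPEP1, a dipeptidase of the cell surface on chromosome 16, held a run at 3628, 3487 and 3338 bp upstream of its start. These probes read -7.10, -7.47 and -6.78 in the first unstimulated replicate and 8.19, 7.84 and 7.93 in the first stimulated replicate, with the second replicates at -6.16, -7.13 and -6.13 and at 7.99, 7.55 and 8.44. The next tested probe outside this run, at 4059 bp upstream, read 0.11 and 0.53 at the basal level and 0.15 and 0.28 after stimulation, and thus did not move with it. On the other side, the probe at 3087 bp upstream read -0.32 and -0.20 at the basal level and rose by 9.02 (limma), so that its stimulated value was like that of the run while its basal value was near 0.

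U8, the small nucleolar RNA SNORD118 that acts in ribosomal RNA processing, held a run on chromosome 17 at 2627, 2529 and 2383 bp upstream, with differences of 15.98, 9.71 and 13.99. CD320, the cellular receptor for transcobalamin, held a run at 1675, 1781 and 1950 bp downstream on chromosome 19, with differences of 14.99, 14.57 and 8.96. PLEK2, a pleckstrin family protein that binds membranes, held 3 members at 1326, 1563 and 1676 bp with differences of 10.44, 13.94 and 11.96. Tested probes of PLEK2 at 100 and 2414 bp changed by -4.55 and 4.91 (limma). FOXE3, a forkhead factor of lens development, and GABRP, a subunit of GABA receptors, are named for their runs after their values were seen. The FOXE3 run at 3604, 3478 and 3335 bp upstream was followed by probes at 3160, 3053 and 2856 bp upstream, which read between -0.83 and 0.53 at the basal level and between 6.29 and 9.92 after stimulation. The GABRP run of 4 members, from 2061 to 2426 bp downstream, read between -3.72 and -1.70 at the basal level and between 3.09 and 8.03 after stimulation. The tested probes on either side of it, at 1354 and 3781 bp, read between -0.87 and 0.90 in all replicates. SLC4A11, a transporter of the plasma membrane, TMEM109 and SEPTIN4 (SEPT4 on the array) each held a pair of members, with differences from 10.14 to 12.95. At SEPTIN4, tested probes at 2650 and 2465 bp upstream changed by 5.17 and 5.52 (limma). Those at 2222 and 2071 bp upstream changed by -5.18 and -5.29.

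**Figure D3:**
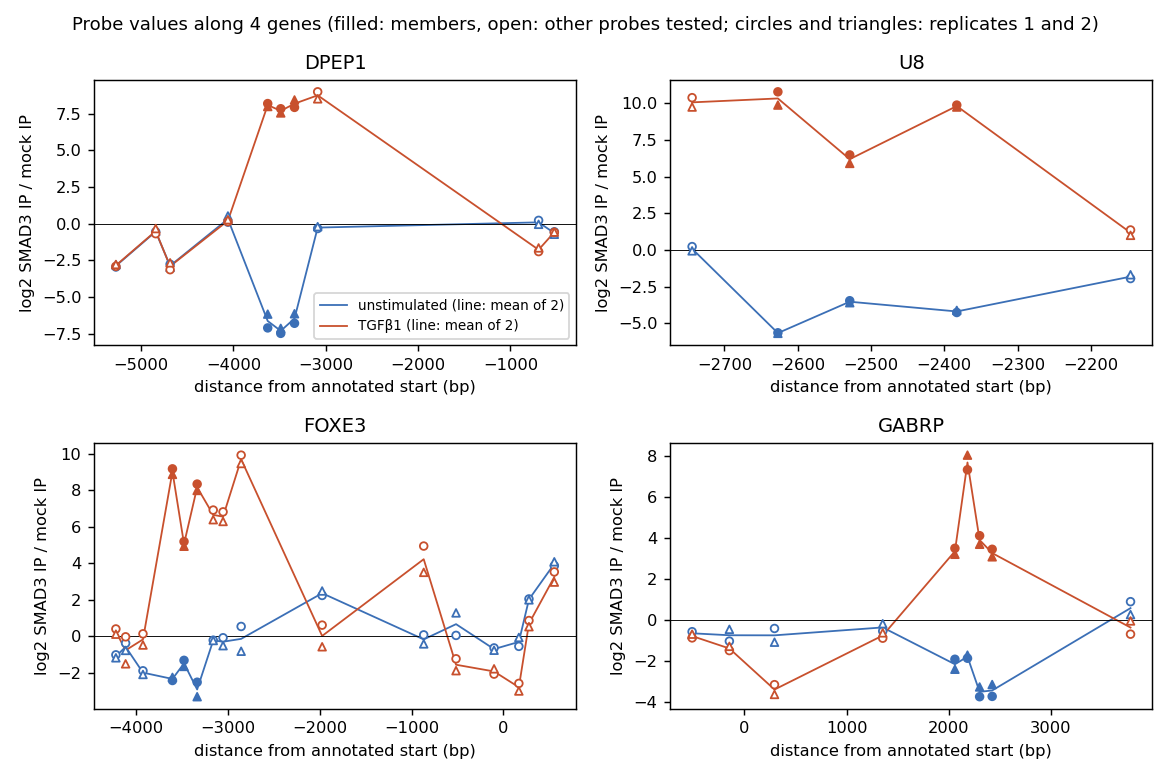
Log2 SMAD3 IP/mock IP ratio against distance from the annotated start in bp along DPEP1, U8, FOXE3 and GABRP; blue is unstimulated, orange is stimulated, circles and triangles are replicates 1 and 2, filled symbols are members and lines join the means. At GABRP the conditions lie apart over the run of members and near each other at the tested probes on either side. At DPEP1 this holds on the far side only (0.11 to 0.53 in all replicates at 4059 bp upstream), while open symbols beside the runs of DPEP1, U8 and FOXE3 are also higher after stimulation.

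The probes beside the members, which the selection left out, were compared between the conditions with limma over all tested probes. Of 2323 such neighbours within 250 bp of a member, the nearest at 69 bp, 1414 were tested. Of these, 569 (40.2%) were called higher after TGFβ1 stimulation at an adjusted p under 0.05 and 276 (19.5%) lower, while 23.2% of all tested probes were called higher and 30.6% lower. Their median change was 0.55, against -0.18 over all tested probes. The median log2 ratio of the neighbours was -0.51 and -0.68 at the basal level and -0.15 and -0.12 after stimulation. The share called higher fell with distance, from 43.5% at 60 to 150 bp to 37.3% at 150 to 250 bp, 29.7% at 250 to 500 bp, 24.6% at 500 to 1000 bp and 22.5% at 1000 to 2000 bp, where it was close to the 23.2% of all tested probes. Beside the probes positive only at the basal level, the pattern was turned around, with 14.7% of 1965 neighbours higher and 49.4% lower. Beside those positive in both conditions it was close to that of all tested probes, with 21.5% higher and 29.8% lower. The neighbours were hybridised on the same slide and from the same precipitated DNA as the members, so these shares describe how far the pattern reaches along the DNA and are no independent replicate of it.

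Member by member, 917 had a tested neighbour within 250 bp that was no member. A neighbour was called higher beside 484 of them and lower beside 244, and no neighbour was called in either direction beside 255. These counts have no matching count around all tested probes, of which 23.2% were themselves called higher and 30.6% lower. They are thus given as a description. Another 408 members had neither a tested neighbour nor a second member in this window, so that for them a single probe carries the pattern.

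The neighbours were also compared in each channel alone. In the SMAD3 IP channel, limma called 148 of the 1414 neighbours (10.5%) higher and 154 (10.9%) lower, against 6.09% and 9.52% of all tested probes, and the median change was -0.00. In the mock IP channel it called 83 (5.87%) higher and 327 (23.1%) lower, against 10.1% and 11.3% of all tested probes, and the median change was -0.20, against 0.20 over all. Of the 569 neighbours with a higher ratio, 133 (23.4%) had a higher SMAD3 IP signal alone, 282 (49.6%) had a lower mock IP signal alone, 3 had both and 151 (26.5%) passed the test in neither channel. Among all 36035 probes with a higher ratio that were no members, these shares were 14.9% for SMAD3 IP alone, 38.1% for mock IP alone, 0.586% for both and 46.5% for neither. The SMAD3 IP share called higher was 6.29% without unstimulated replicate 1, 6.15% without stimulated replicate 1 and 6.01% without stimulated replicate 2, where 1.36%, 1.29% and 1.14% of all tested probes were called. With either stimulated replicate left out, limma called 0 of all tested probes in the mock IP channel, while at an unadjusted p under 0.05 it called 22.0% and 25.5% of the neighbours lower, against 11.2% and 14.7% of all tested probes. A lower mock IP signal raises the ratio by its definition. What lies behind the fall of the mock signal was not tested.

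**Figure D4:**
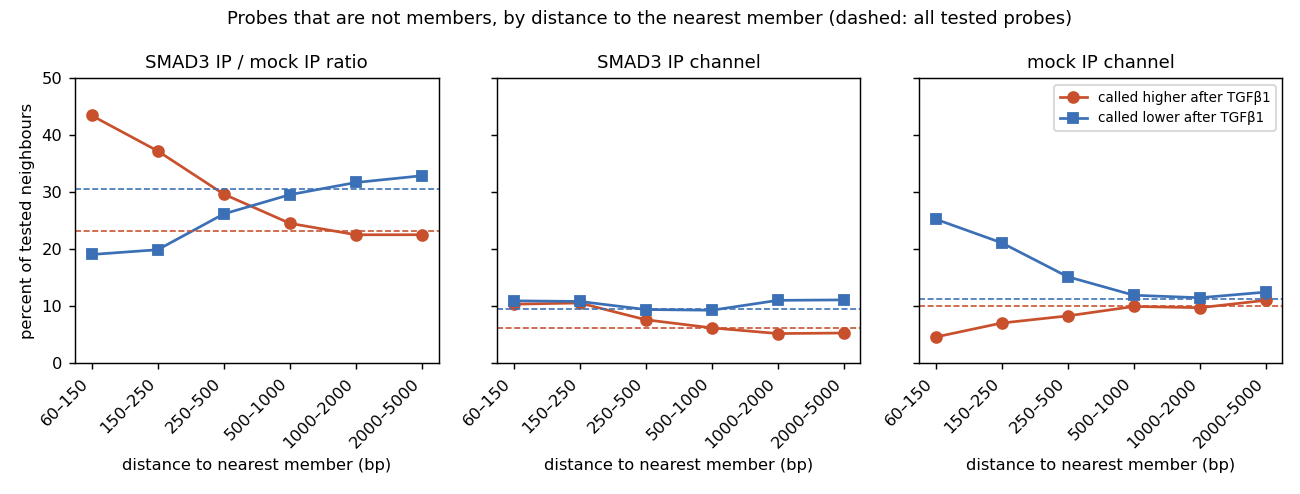
Percent of tested probes that are no members and were called higher (orange) or lower (blue) after stimulation by limma, against their distance to the nearest member in bp, for the ratio, the SMAD3 IP channel and the mock IP channel; dashed lines are the shares of all tested probes. For the ratio the share called higher falls from 43.5% to the background of 23.2%, and in the mock IP channel the share called lower falls from 25.3% to 11.5% at 1000 to 2000 bp.

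The neighbours with the largest changes were beside members at FOXC1, BGN and a few other genes. They were picked for the largest changes among neighbours that limma called higher, which nearly fixes their small p-values. FOXC1 encodes a forkhead factor, and its member 4766 bp upstream read -1.96 and -1.94, then 7.29 and 6.86. The neighbour at 4563 bp upstream rose by 11.80 (limma adjusted p = 0.000326), from -1.41 and -0.46 to 11.51 and 10.22. BGN encodes biglycan, a proteoglycan of the extracellular matrix, and its members at 9043 and 9490 bp had differences of 3.66 and 8.82. A neighbour at 9385 bp rose by 11.60 (limma adjusted p = 0.00099) and another at 9255 bp by 10.33 (limma adjusted p = 0.000453). TCEAL7, ZSWIM4, SUSD3, BHLHE23 (BHLHB4 on the array), TONSL (NFKBIL2 on the array) and FLJ34931 each held a member beside a probe that rose by 10.15 to 11.73. The unstimulated values of these neighbours lay between -2.72 and 0.75, with at least 1 value above -1 for each, so that they were no members although their stimulated values were high.

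The members fell on 1202 gene labels, or 6.78% of the 17725 labels with a tested probe, and 130 labels held more than 1 member. Labels with members had a median of 13 tested probes, against 7 over all labels. On 157 labels, 13.1% of those with a member and 9.66% of those with a probe positive only at the basal level, both kinds of probe were found. Among the genes of the TGFβ pathway itself, 5 of 28 labels (17.9%) held a member. Per tested probe this was 1.74% of 287, against 0.869% of all tested probes, and these differences were not tested for any list. All lists, here and below, were chosen with earlier results of these data known, so their shares are not independent of the values. The SMAD3 gene held a member at 833 bp from its start, which read -2.44 and -2.33 at the basal level and 4.16 and 3.99 after stimulation. SMAD4, the common partner of the receptor-activated SMADs, held one at 567 bp upstream, which read -1.43 and -1.86 and then 3.93 and 3.85. TGFB3, a ligand of the family, read -2.88 and -2.90 and then 2.94 and 2.48 at 2637 bp downstream. The type I receptor ACVR1B read -3.71 and -3.44 and then 2.13 and 2.85, and TGIF1, a homeodomain repressor that binds SMADs, read -1.36 and -1.10 and then 3.47 and 3.28. No neighbour of these members within 250 bp was called in either direction, and those of SMAD4, TGFB3 and ACVR1B had none that could be tested. In the ACVR1B member the SMAD3 IP signal differed by 1.04 and the mock IP signal by -5.09. In the other members of this list the SMAD3 change was the larger, from 3.69 to 4.97, with mock changes from -1.75 to -0.74.

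Genes of the extracellular matrix and of adhesion held 13 members on 12 of 44 labels (27.3%), against 6.78% of all labels. Per tested probe this was 2.15% of 604, against 0.869% of all tested probes. COL7A1, the collagen of anchoring fibrils, held one at 1615 bp that read -5.70 and -5.20 and then 2.58 and 2.64. Its neighbour at 1445 bp rose by 7.29 (limma adjusted p = 0.00178), from -8.18 and -6.11 to -0.28 and 0.57. That neighbour was thus near the array median after stimulation and not enriched. In the COL7A1 member the SMAD3 IP signal differed by 0.40 and the mock IP signal by -7.55. MMP9, a gelatinase that degrades matrix, held one at 3825 bp upstream, which read -2.89 and -2.82 and then 8.69 and 7.71. Its neighbour at 3651 bp upstream rose by 6.36 (limma adjusted p = 0.000476), from -4.68 and -4.52 to 1.26 and 2.25. The SMAD3 IP and mock IP signals of the MMP9 member differed by 7.03 and -4.09. ITGB6, the integrin chain that activates latent TGFβ1, held one at 5408 bp upstream with -2.33 and -3.51 and then 5.69 and 5.77, and there the mock IP signal also went up, by 0.77, with 9.31 in the SMAD3 IP channel. COL1A1, the main chain of type I collagen, read -3.55 and -3.07 and then 3.22 and 3.36 at 595 bp, but its SMAD3 IP signal fell by 2.29 while the mock IP signal fell by 8.96. The other members of this list, at TIMP1 and TIMP3 (inhibitors of metalloproteinases), MMP14 (a metalloproteinase of the membrane), COL5A1 and COL6A1 (collagen chains), ITGA3, ITGB4 and ITGB5 (integrin chains) and a second probe of COL7A1, had differences from 3.91 to 8.62. Among them the mock change was larger than the SMAD3 change at TIMP3, COL6A1, ITGA3, ITGB4 and ITGB5. It was smaller at TIMP1, MMP14, COL5A1 and the second COL7A1 probe. At ITGB5 the SMAD3 IP signal differed by -0.32.

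Genes of the epithelial-mesenchymal transition held 7 members on 6 of 21 labels (28.6%), against 6.78% of all labels. Per tested probe this was 2.73% of 256, against 0.869% of all tested probes. VIM, the intermediate filament of mesenchymal cells, had the largest difference of any listed gene, with -2.04 and -1.75 at the basal level and 9.91 and 11.32 after stimulation at 4257 bp upstream. TWIST1, a transcription factor of the transition, read -2.26 and -2.59 and then 4.47 and 5.18 at 1491 bp upstream. The VIM and TWIST1 members had neither a tested neighbour nor a second member within 250 bp, so a single probe carries each. TJP1, the tight junction protein ZO-1, held a pair of members at 828 and 977 bp, with differences of 9.21 and 9.92. The keratins KRT8 and KRT18, which pair in simple epithelia, held one each, with differences of 7.23 and 3.59, and at KRT8 the SMAD3 IP signal differed by -0.00 between the conditions while the mock IP signal fell by 7.30. Of the 3 tested neighbours of the KRT8 member, 1 was called higher and 1 lower, and the KRT18 member had none that could be tested. CLDN3, whose promoter is printed above, read -2.53 and -3.07 and then 2.58 and 2.54. Its neighbour at 348 bp upstream rose by 6.44 (limma adjusted p = 0.000373), from 0.33 and -0.07 to 6.93 and 6.21. Genes that mark mesenchymal cells and genes that mark epithelial cells were thus both among the members.

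Among 32 labels of cell cycle genes, 4 (12.5%) held members, against 6.78% of all labels. Per tested probe this was 1.37% of 366, against 0.869% of all tested probes. CDK6 held a pair, of which the one at 156 bp upstream had a difference of 8.15, with 4.23 and 3.81 after stimulation, and the one at 274 bp upstream read -1.46 and -1.43 and then 2.40 and 2.43. Each had 1 tested neighbour that was no member, and it was called lower. CCNA2, the cyclin of S phase and mitosis, read -2.96 and -3.63 and then 4.26 and 3.69 at 173 bp. Its neighbour at 272 bp rose by 5.32 (limma adjusted p = 0.000344), from -3.74 and -4.18 to 1.48 and 1.24. CCND2, a D-type cyclin, and the label of CDKN1C, a kinase inhibitor, with SLC22A18 held one each, with differences of 4.53 and 4.64. The only tested neighbour of the CCND2 member was called lower, and that of the other was called in neither direction. The mock change was larger than the SMAD3 change in both CDK6 members, in CCNA2 and in CCND2. For the CDK6 member at 156 bp upstream the SMAD3 change was 1.88 and the mock change -6.16, and for CCNA2 they were 2.39 and -4.77. At the CDKN1C label the SMAD3 change was the larger, with 4.94 against 0.23. Lung epithelial genes held 1 member, at KRT7, on 1 of 20 labels, with -2.14 and -1.95 and then 3.03 and 3.02. The AP-1 factors held 0 members among 266 tested probes on 15 labels. The list of immediate TGFβ1 targets held 6 members on 5 of 29 labels, all named above, at COL1A1, COL7A1, ITGB6, MMP9 and TIMP1, which are also on the matrix list.

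Over all lists, 31 members lay on 28 labels, and per tested probe they made up from 0% of the AP-1 list and 0.312% of the lung list to 2.73% of the list of the transition, against 0.869% of all tested probes. In 28 of the 31 the SMAD3 IP signal was higher after stimulation. Among all 1403 members it was higher with a lower mock IP signal in 77.4% and with a higher one in 13.1%. The mock change was larger than the SMAD3 change in 16 of the 31, against 39.3% of all members. These channel values belong to the selection and are given as a description. Counted over all genes of each list, with or without a member, the tested probes that were no members gave shares close to the background. Of these, between 18.8% and 24.1% per list were called higher by limma and between 26.9% and 32.0% lower, against 23.2% and 30.6% of all tested probes, with median changes from -0.28 to -0.13, against -0.18.

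**Figure D5:**
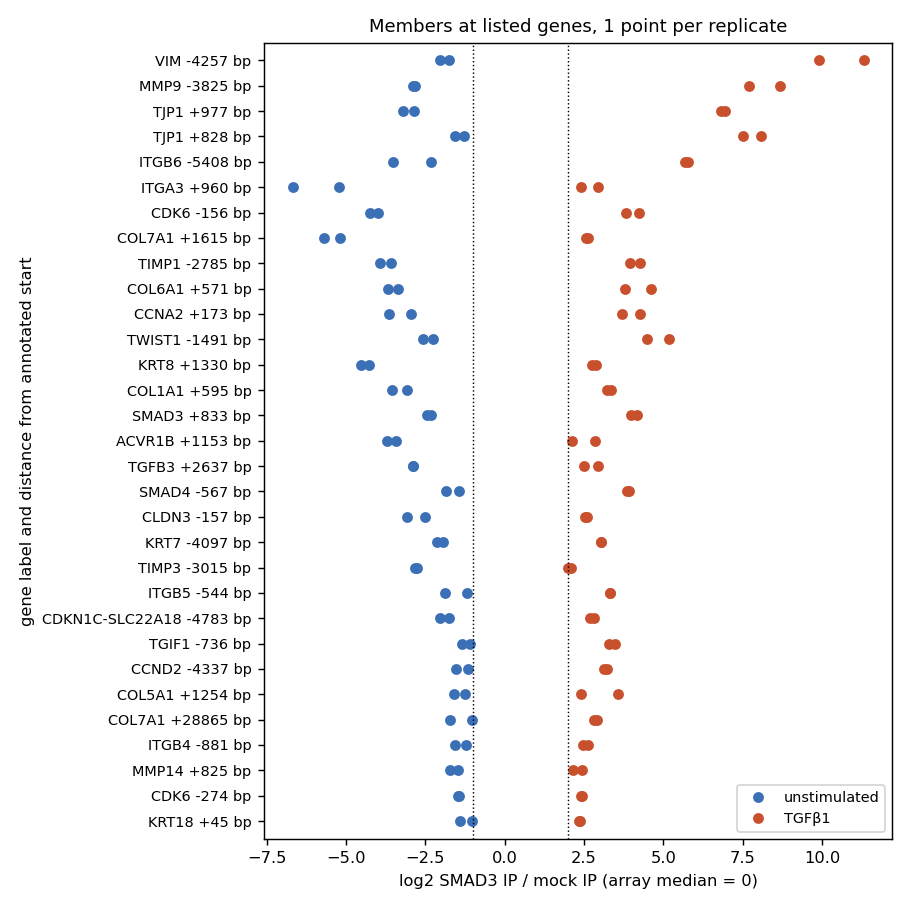
Log2 SMAD3 IP/mock IP ratio of the 31 members at listed genes, 1 point per replicate (2 per condition), ordered by the difference between the conditions, with the gene label and the distance from the annotated start in bp. The points of the 2 conditions lie on either side of the thresholds (dotted, -1 and 2) by selection, and the distance between them runs from 3.59 at KRT18 to 12.51 at VIM.

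Micro RNA genes were also on the array, and 16 of 278 tested labels (5.76%) held 18 members, a share near the 6.78% of all labels. The mature products of a few of them, chosen after their values were seen for genes with a known role in epithelia or proliferation, are printed from RefSeq, 5′ to 3′, with the seed (bases 2 to 8) in capitals.
miR-17-5p: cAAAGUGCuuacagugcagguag
miR-106b-5p: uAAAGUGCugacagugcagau
miR-200b-3p: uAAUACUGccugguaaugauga
miR-126-3p: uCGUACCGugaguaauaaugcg
miR-212-3p: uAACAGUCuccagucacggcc
miR-17-5p and miR-106b-5p share the seed AAAGUGC and belong to the family that lowers inhibitors of the cell cycle, while miR-200b-3p is known for holding cells in the epithelial state. The gene of miR-17 held members at 2967 and 1215 bp upstream. The first had a difference of 8.60, with -3.85 and -3.75 at the basal level, beside a neighbour at 2855 bp upstream that rose by 2.49 (limma adjusted p = 0.00176), and the second read -1.84 and -2.51 and then 2.99 and 2.99. That of miR-106b held members at 4923 and 4552 bp upstream, with differences of 8.47 and 6.39, and a neighbour at 5032 bp upstream rose by 9.34 (limma adjusted p = 0.000278). Other genes with this seed were not examined, so these values describe the 2 genes and not the family. The miR-200b gene held one at 211 bp upstream, which read -2.01 and -1.96 and then 2.89 and 2.59 and had no tested neighbour. The miR-126 gene, whose product is known from endothelium, held one with -1.80 and -3.51 and then 2.12 and 2.12 at 5946 bp upstream, and its 3 tested neighbours were all called lower. At the label shared by miR-212 and HIC1, a tumour suppressor, the member read -2.90 and -2.95 and then 2.35 and 2.57, and a neighbour rose by 0.81 (limma adjusted p = 0.03).

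By position, the members were close to the tested probes as a whole. They lay inside genes in 780 cases (55.6%, against 55.2% of tested probes) and in promoters in 528 (37.6%, against 38.7%). Within 250 bp of an annotated start lay 210 (15.0%), against 18.1% of the tested probes and 38.7% of those positive in both conditions. More than 800 bp downstream lay 494 (35.2%), against 31.9% and 17.8%. The probes positive in both conditions were chosen by another threshold on the same values, and the differences between these shares were not tested. By chromosome, the largest number was on chromosome 19, with 139 (9.91%), which also held 9.09% of the tested probes but 5.36% of all probes. Probes of 60 bases made up 3.21% of the members, 1.79% of the tested probes and 43.0% of all probes, so most of the longest probes were not well above background and could not be members. Each corner region of a slide (upper or lower rows, left or right columns) held from 21.8% to 26.6% of the members.

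The number of members depended on the signals used. With mean signals corrected by normexp with an offset of 50, in place of the processed signals, 163 probes met the same thresholds, of which 139 were among the 1403. All 1403 members kept a difference above 0 with it, which the selection nearly fixes, with a median of 3.19 in place of 5.82. Their median values became -0.18 and -0.89 at the basal level and 1.55 and 2.62 after stimulation. Of the members, 869 were above 1 after stimulation and below 0 at the basal level with normexp. On that scale 40.2% of neighbours called higher became 15.0%, and the share of all tested probes became 4.64%.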

How the data were processed

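The authors deposited intensity values per spot and channel from Agilent Feature Extraction 9.5.1.1, whose processed signals are background-subtracted and scaled per dye, and a series matrix of log2 SMAD3 IP/mock IP ratios for the same arrays, which differed from the intensities by at most 3.13e-06. The genome build is not named in the files. Here, control spots were left out and log2 ratios of processed signals were shifted so that every array had a median of 0 (the medians had been 0.24 to 0.72); no loess or quantile normalization was applied. Between 38.7% and 51.5% of the probes per array were above background in SMAD3 IP and mock IP alike, and the precision is limited by this and by the small number of arrays. Of the members, 2 had a saturated spot and 9 an outlier flag.

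Groups and replicates came from the sample labels. In the ratio, the replicates of a condition correlated with r from 0.89 to 0.98 and the conditions with 0.31 to 0.33 over tested probes. Between the conditions, r was 0.75 to 0.77 in the SMAD3 IP channel and 0.61 to 0.62 in the mock IP channel. Conditions were compared with limma 3.58.1 (lmFit and eBayes, Benjamini-Hochberg adjustment at 0.05) over all 161376 tested probes, on the ratio and on each channel. No test was made on the members themselves, since their values chose them. The 5 tested probes without a position had no neighbours. Neighbours were probes with midpoints within 250 bp. Gene symbols were updated through RefSeq (GRCh38.p14), which matched 1124 of 1202 labels. The test was checked on simulated data.

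The genes named are the 10 members with the largest difference, members at listed genes, those of the 10 genes with several members and the largest mean difference, the 10 members beside the largest neighbour changes and the probes nearest each threshold; exceptions are stated. The members, gene lists and motifs were chosen with earlier results of these data known. The alternatives were normexp (offset 50), loess, the series matrix, centring on tested probes, no signal filter, outlier spots left out, separate slides, a replicate block, wider windows and leaving out each replicate. R 4.3.3 and Python 3.11.15 were used.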

Additional observations from a re-analysis of the deposited data

How the results depend on the processing

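The rule gave 163 probes with normexp in place of 1403. It gave between 1394 and 1829 with loess, the series matrix values, centring on the tested probes, no signal filter and outlier spots left out, and of the 1403 members 952 were kept with loess and 1089 with centring on the tested probes. Each probe had 1 spot per array, so that taking each spot on its own changed nothing. The share of neighbours called higher in the ratio was 15.0% with normexp, against 4.64% of all tested probes. Under the other settings it ranged from 30.0% (within 1000 bp) to 44.1% (loess), and it stayed above the share of all tested probes in each. Over all tested probes, limma called 37438 higher and 49372 lower, against 7491 and 10707 with normexp. The median change of all tested probes was -0.18 and became -0.05 with centring on them.

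Leaving out each replicate gave 34.2% to 39.0% of neighbours higher in the ratio. In the SMAD3 IP channel it gave 6.01% to 10.96% higher, and in the mock IP channel 0% to 33.9% lower, with 0% where either stimulated replicate was left out. A lone replicate was then taken to vary like the other condition.

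The replicate numbers are shared by the conditions, but the deviations of same-numbered samples correlated only with 4.86e-05 and 0.026 on the slides for the ratio. These correlations were 0.056 and 0.040 in the SMAD3 IP channel and 0.084 and 0.052 in the mock IP channel. The labels do not say whether same-numbered samples were handled together. With a replicate block the shares were 40.0% for the ratio, 10.7% for the SMAD3 IP channel and 21.6% for the mock IP channel, and the calls over all tested probes were 35802 higher and 47228 lower. The size of the difference moved by more than the replicate SD in 89 of the 90 named members with normexp, in 20 with loess and in 16 with centring on tested probes, and in 0 when a replicate was left out. With normexp it became 1.73 in place of 8.62 at ITGA3 and 1.76 in place of 5.53 at SMAD4, for example. The direction was kept in each, which the selection nearly fixes. A block for the scan date was not run, because all arrays were scanned on the same day.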
